A study of Mus musculus with 2 samples.

Results

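Kinesins and centromere proteins were chosen from the deposited array table by symbol, as every gene named Kif with a number (and a letter a to c where there is one) or Cenp with a letter a to x on a probe set that names no other gene. The rule found 53 of the 20679 genes that the table names singly, read by 133 of 45101 probe sets. They comprised 36 kinesins, which were split by known role into 12 mitotic, 15 transport and 9 other kinesins, and 17 centromere proteins. RNA came from 2 cultured mouse lines, titled S1 and S2, that were sorted by the surface markers Sca1 and CD24 from a single lung squamous cell carcinoma (SCC) line. That tumour line arose in L-Ikkα KA/KA mice (FVB background), which carry a kinase-dead Ikkα knock-in, so both lines share this allele, and both grew in DMEM with 10% FBS. S1 is the Sca1-high, CD24-negative line, described as tumorigenic and read here as KALLU+, and S2 is the Sca1-low, less tumorigenic line, read as KALLU-. Each line is 1 sample from a single tumour line, and the labels give both samples the same source name.

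For each probe set the deposited table gives a single number, how many times higher (plus sign) or lower (minus sign) S1 was than S2, and no level in either line. With no per-sample values, replicates or signals, neither an SD nor a test of the lines against each other could be had, and how bright a probe set was is not known. All values below are log2 fold changes of S1 over S2 unless a fold is named, genes are given by the median of their probe sets, and 2-fold changes (1.00 on the log2 scale) were counted by size alone. In bulk RNA, fewer dividing cells and less RNA per cell cannot be told apart. As a description of scatter among dim probe sets, 76 olfactory and vomeronasal receptor probe sets, assumed silent, lay between -0.55 and 0.38. The direction was read against the sorting markers. Cd24a was lower in S1 at all 3 probe sets (-5.96, -5.73 and -5.31), as labelled, but Ly6a, which encodes Sca1, was also lower (-2.57 at its 1 probe set), against the label. Directions below are thus those of the line labelled S1.

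Kinesins are motor proteins that use ATP to walk along microtubules or to shorten them. Mitotic kinesins push spindle poles apart, align chromosomes and help to cut the cell at its end of division, and many are made mainly from late S phase to mitosis, whereas transport kinesins carry vesicles, organelles and RNA in cells at all stages. Centromere proteins mark the site on each chromosome where the kinetochore is built, the structure that binds spindle microtubules. Many genes of mitosis carry a cell-cycle homology region (CHR) near the transcription start, which is bound by the DREAM complex in resting cells and by activating MYB and FOXM1 complexes in dividing ones, often together with CCAAT boxes bound by NF-Y.

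RefSeq promoter windows (GRCm38.p6, 250 bases before to 50 after the start, 300 bases, written 5′ to 3′ on the gene's strand) were found for 48 of the 53 members. They set apart the mitotic from the transport kinesins on a measure that the arrays did not touch. CHR letters (TTTGAA or its reverse complement TTCAAA) stood in the window of 9 of 11 mitotic kinesins (81.8%), 1 of 11 transport kinesins (9.09%), 2 of 9 other kinesins and 5 of 17 centromere genes (29.4%), against 20.2% of all 27025 genes in the table. Within 50 bases of the start on either side, the same letters stood in 7 mitotic kinesins (63.6%), 1 transport kinesin and 4 centromere genes, against 5.72% of all genes. CCAAT letters (CCAAT or ATTGG) stood in 7 of 11 mitotic kinesins, 3 of 11 transport kinesins and 11 of 17 centromere genes, against 41.1% of all genes. Each motif was searched on both strands, neither holds the other's letters, and a match is a description of letters and not a binding site.

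**Figure D1:**
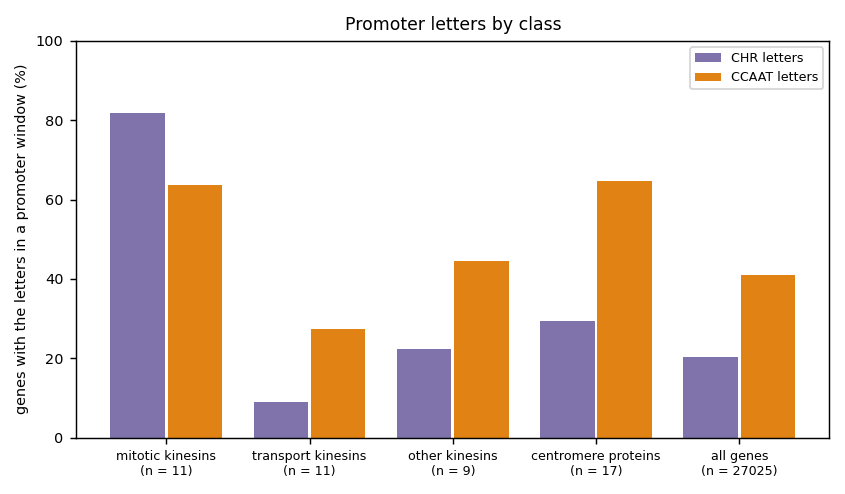
Share of genes (%) whose promoter window held CHR letters (purple) or CCAAT letters (orange), for each class and for all genes in the promoter table, with the number of genes that had a window under each name. The CHR bar was 81.8% for mitotic kinesins, 9.09% for transport kinesins and 20.2% for all genes.

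The 5 windows below are shown because genes that hold the same letters differed in their fold change. Kif11 (plus strand, chr19:37376132-37376431), Kif20b (plus, chr19:34922108-34922407) and Cenpf (minus, chr1:189688037-189688336) were more than 2-fold higher in S1. Kif18b (minus, chr11:102925075-102925374) and Kif22 (minus, chr7:127042371-127042670) had -0.29 and -0.40, both inside the range of the silent receptors. Capitals mark CHR and CCAAT letters.
Kif11: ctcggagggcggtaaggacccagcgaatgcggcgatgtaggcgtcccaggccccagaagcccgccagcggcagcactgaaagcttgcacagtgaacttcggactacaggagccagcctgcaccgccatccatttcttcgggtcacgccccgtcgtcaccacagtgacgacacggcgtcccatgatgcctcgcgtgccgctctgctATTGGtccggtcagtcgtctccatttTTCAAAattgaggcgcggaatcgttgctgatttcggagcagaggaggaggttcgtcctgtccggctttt
Kif20b: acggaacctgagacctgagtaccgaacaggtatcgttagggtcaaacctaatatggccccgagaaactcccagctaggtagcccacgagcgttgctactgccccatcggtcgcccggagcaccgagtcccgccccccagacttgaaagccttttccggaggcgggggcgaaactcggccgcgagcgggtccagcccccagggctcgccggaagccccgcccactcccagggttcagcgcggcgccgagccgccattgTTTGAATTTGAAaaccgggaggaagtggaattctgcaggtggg
Cenpf: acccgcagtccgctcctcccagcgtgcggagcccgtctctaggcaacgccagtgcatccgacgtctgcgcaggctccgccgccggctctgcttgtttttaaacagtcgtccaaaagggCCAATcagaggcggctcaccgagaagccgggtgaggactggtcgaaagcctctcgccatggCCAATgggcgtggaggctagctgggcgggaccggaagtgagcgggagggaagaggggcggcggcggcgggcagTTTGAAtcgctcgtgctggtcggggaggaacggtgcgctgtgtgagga
Kif18b: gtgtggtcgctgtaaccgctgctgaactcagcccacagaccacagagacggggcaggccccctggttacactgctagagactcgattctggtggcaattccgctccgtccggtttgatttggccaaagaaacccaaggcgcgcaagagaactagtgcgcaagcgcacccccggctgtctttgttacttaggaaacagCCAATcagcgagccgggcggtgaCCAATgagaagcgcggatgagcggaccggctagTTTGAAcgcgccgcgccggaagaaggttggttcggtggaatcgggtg
Kif22: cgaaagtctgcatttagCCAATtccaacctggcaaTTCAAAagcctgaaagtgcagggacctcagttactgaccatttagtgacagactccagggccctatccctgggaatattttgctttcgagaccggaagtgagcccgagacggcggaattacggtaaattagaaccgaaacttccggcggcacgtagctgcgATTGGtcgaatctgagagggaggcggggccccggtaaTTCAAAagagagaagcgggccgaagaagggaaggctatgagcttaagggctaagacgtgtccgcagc
The CHR letters began 19 bases before the start in Kif11, and 2 and 3 bases past it in Cenpf and Kif18b. Kif22 held them 2 times, 215 and 17 bases before the start. Kif20b also held them 2 times, in a row at 7 and 13 bases past the start, with no CCAAT letters in the window. CHR letters stood in 3 of the 7 members at least 2-fold higher that had a window (42.9%) and in 14 of the 41 others (34.1%). Within 50 bases of the start they stood in 3 of the 7 and in 10 of the 41 (24.4%). Kif5b, also at least 2-fold higher, had no window. Whether holding the letters goes with the fold change was not tested, and 7 genes are few. Cenpe, higher than all 5 genes shown at 2.02, held no CHR letters, and its CCAAT letters began 12 bases before the start. Kif26b, the lowest member at -3.52, held CHR letters 9 bases and CCAAT letters 73 bases before the start. Cenpa, at -0.76, held CHR letters 16 bases past the start.

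Across all members, 8 of 53 genes (15.1%) were at least 2-fold higher in S1, where 4.69% of all genes were, and 1 (1.89%) was at least 2-fold lower, where 5.08% of all genes were. The 8 were Cenpv, Cenpe, Kif5b, Kif11, Cenpf, Kif20b, Kif21a and Cenpj, and the 1 was Kif26b. In total 30 of 53 members (56.6%) lay above 0, against 43.4% of all genes. The median member lay at 0.09 and the median gene at -0.04, so the members stood apart in a few high values more than in their middle. By probe set, 19 of 133 (14.3%) were at least 2-fold higher, against 6.73% of all probe sets, and 3 (2.26%) at least 2-fold lower, against 4.72%. Of the 44 members not past 2-fold, 35 fell inside the range of the silent receptors and 9 outside it. The 35 were 66.0% of all 53 members, where 73.8% of all genes fell inside that range. Nearest to the threshold, Cenpj (1.02) and Kif21a (1.07) lay just past it, and Kif21b (-0.99), Kif7 (-0.95) and Cenpk (0.89) just short of it.

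**Figure D2:**
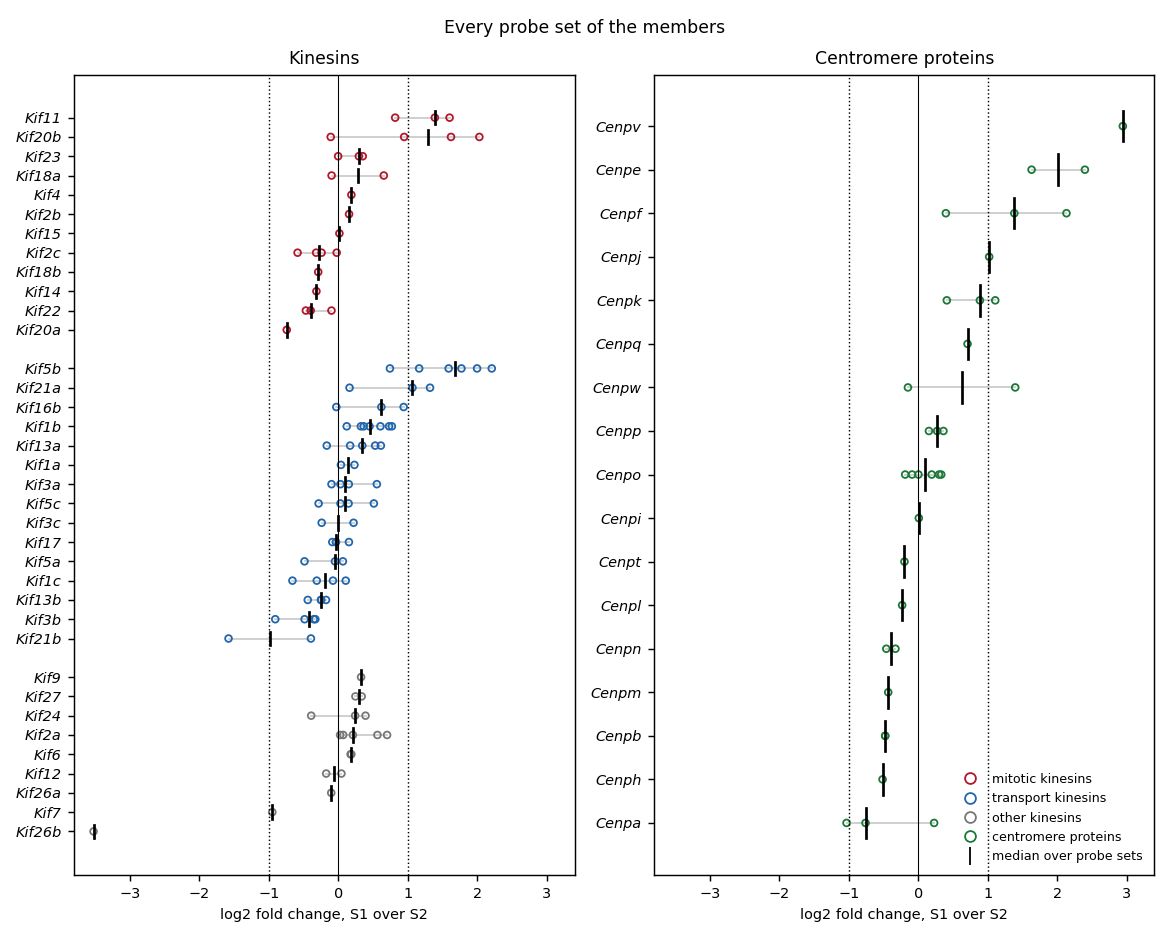
Log2 fold change of S1 over S2 at every probe set (open circles) of the 36 kinesins (left) and 17 centromere proteins (right), coloured by class, with the median of each gene as a black bar and dotted lines at 2-fold. Cenpv at 2.95 and Kif26b at -3.52 are the extremes, each read by 1 probe set, and Kif20b has the widest spread, from -0.11 to 2.03.

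The mitotic kinesins held 2 genes of 12 (16.7%) past 2-fold, both higher in S1, where 4.69% of all genes were. None was at least 2-fold lower, where 5.08% of all genes were. Kif11 encodes the motor that slides spindle microtubules apart so that the poles separate, and its 3 probe sets gave 0.82, 1.39 and 1.60 (median 1.39). Kif20b, a motor of the last steps of cytokinesis, gave -0.11, 0.95, 1.62 and 2.03 (median 1.28), of which the 0.95 came from a probe set whose suffix marks possible cross-hybridisation. Every Kif11 value was above 0, while Kif20b had 1 probe set at which the lines hardly differed. The other 10 ran from -0.74 to 0.29, and their values did not follow the stage at which they act. Of the genes for chromosome movement, Kif18a, which aligns chromosomes, had 0.28, the chromosome-arm motors Kif4 and Kif22 had 0.19 and -0.40, and the microtubule depolymerases Kif2b and Kif2c had 0.15 and -0.28. Kif15, which helps Kif11 to keep the spindle bipolar, had 0.01 at its 1 probe set, unlike Kif11 itself. Of the genes for cytokinesis, Kif23 of the centralspindlin complex had 0.29, Kif14 had -0.32 and Kif20a, the closest relative of Kif20b, had the lowest value of the class at -0.74. Kif20a and Kif20b thus lay on opposite sides of 0, although Kif20a rests on 1 probe set. Kif18b, which acts at the ends of astral microtubules, had -0.29.

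The transport kinesins likewise held 2 genes of 15 (13.3%) past 2-fold, both higher in S1, where 4.69% of all genes were. None was at least 2-fold lower, where 5.08% of all genes were. Kif5b, the conventional kinesin heavy chain found in most tissues, had the highest value of the 36 genes named Kif, 1.68 (3.20-fold). Its 6 probe sets gave 0.74, 1.16, 1.59, 1.77, 2.00 and 2.21, so that 5 of 6 passed 2-fold and all lay above the range of the receptors. The neuronal heavy chains Kif5a and Kif5c had -0.05 and 0.09. Kif21a, a motor that also restrains microtubule growth, gave 0.16, 1.07 and 1.32 (median 1.07). Its paralog Kif21b gave -1.58 and -0.40 (median -0.99), so the paralogs lay in opposite directions, but 1 probe set of each lay inside the receptor range. The other 12 transport kinesins ran from -0.42 to 0.62. At the upper end were Kif16b (0.62), which moves early endosomes, and Kif1b (0.45), which carries mitochondria and synaptic vesicle precursors. Kif13a, a motor of recycling endosomes, had 0.34, and Kif1a, the neuronal relative of Kif1b, had 0.13. Of the kinesin subunits that drive transport in cilia, Kif3a had 0.09 and its partner Kif3b had -0.42, the lowest of these 12, while Kif3c had -0.01 and Kif17 had -0.03. Kif1c and Kif13b, also vesicle motors, had -0.19 and -0.25.

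The mitotic and transport kinesins had nearly equal middle values. Their medians were 0.08 and 0.09, a difference of -0.0044 (mitotic minus transport), and their means were 0.13 and 0.17, a difference of -0.037. The mitotic values ran from -0.74 to 1.39 with 7 of 12 above 0, and the transport values from -0.99 to 1.68 with 8 of 15 above 0, so the ranges overlapped over nearly their whole length. By probe set, 4 of 25 mitotic and 7 of 56 transport probe sets were at least 2-fold higher, against 6.73% of all probe sets. In the same order, 0 and 1 were at least 2-fold lower, against 4.72%. The 4 all belong to Kif11 and Kif20b and the 7 to Kif5b and Kif21a, and probe sets of 1 gene are not separate members. With 1 sample per line the difference has no interval, and its small size does not show that the classes behaved alike.

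The 9 other kinesins held the lowest member. Kif26b, whose motor domain lacks ATPase activity and which acts in non-canonical Wnt signalling, had -3.52 (11.5-fold lower in S1) at its only probe set, so no second probe set checks the value. Its close relative Kif26a had -0.10. Kif7, a regulator of Hedgehog signalling at the tip of the primary cilium, had -0.95, also from 1 probe set. The kinesins linked to cilia and flagella lay between these and 0.33, with Kif9 at 0.33, Kif27 at 0.29, Kif24 at 0.24 and Kif6 at 0.18. The microtubule depolymerase Kif2a had 0.21 and Kif12 had -0.07. Apart from Kif26b and Kif7, the values of this class lay inside the receptor range. The median over all 9 genes was 0.18.

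**Figure D3:**
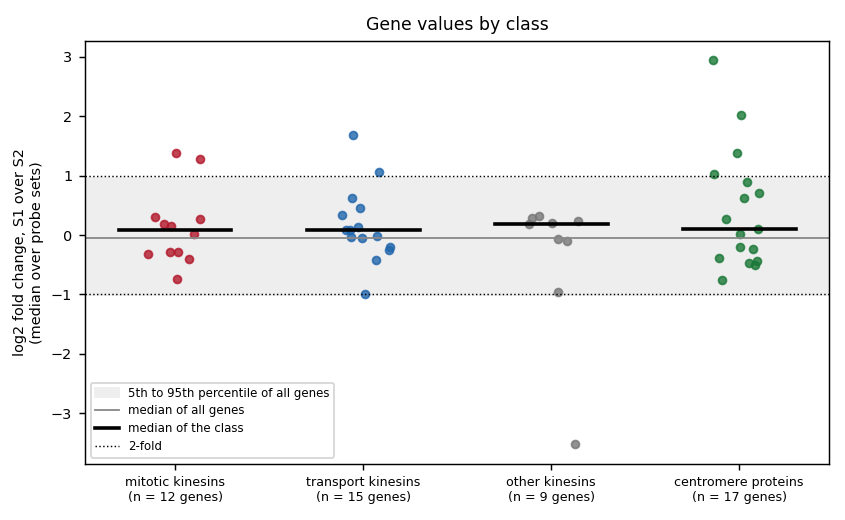
Gene values (median log2 fold change over probe sets, S1 over S2) of the 4 classes, 1 point per gene with random horizontal offsets, class medians as black bars, the 5th to 95th percentile of all 20679 genes as a grey band (-1.01 to 0.95) and dotted lines at 2-fold. The class medians lie between 0.08 and 0.18, and the centromere proteins have the most genes above the band, 4 of 17.

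The centromere proteins held 4 genes of 17 (23.5%) past 2-fold, each higher in S1, where 4.69% of all genes were. None was at least 2-fold lower, where 5.08% of all genes were. The highest was Cenpv, which is needed for normal centromere condensation and associates with microtubules, at 2.95 (7.70-fold) from its 1 probe set. Cenpe is itself a kinesin, which tethers chromosomes to spindle microtubules and moves them to the cell equator, and its 2 probe sets gave 1.63 and 2.40 (3.10-fold and 5.28-fold). Cenpf, a large kinetochore protein that accumulates before mitosis, gave 0.40, 1.38 and 2.13 (median 1.38). Cenpj, a centriole protein despite its name, had 1.02 at 1 probe set. None of these 4 is a subunit of the constitutive centromere-associated network, the complex that sits on centromeric chromatin throughout the cell cycle. Of the 11 network subunits that the symbol rule kept, none passed 2-fold in either direction, and their median was 0.01 (-0.51 to 0.89). Network subunits filed under other symbols, such as Cenpc1 (1.17), are outside this count. They stand among the 9 centromere partners read below, whose median was 0.11. With 4.69% of all genes past 2-fold above 0 and 5.08% below it, a count of 0 among 11 is near the share over all genes.

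Among the network subunits that the rule kept, Cenpk was the highest, with 0.41, 0.89 and 1.11 (median 0.89). Cenpq had 0.71 at 1 probe set. Cenpw, a histone-fold subunit, gave -0.15 and 1.40, so its median of 0.62 describes neither probe set. Its histone-fold partner Cenpt had -0.20. Cenpp and Cenpo, subunits of the same subcomplex as Cenpq, had 0.27 and 0.10, the latter over 6 probe sets that all lay inside the receptor range. Cenpi had 0.01, and Cenpl, Cenpn, Cenpm and Cenph had -0.23, -0.39, -0.43 and -0.51. Cenpk and Cenph, which bind each other, thus differed in value, although Cenph lay inside the receptor range. Cenpb, which binds satellite repeats, had -0.47, inside the receptor range. Cenpa, the histone H3 variant that defines the centromere, had -1.03, -0.76 and 0.23 (median -0.76), with 1 of 3 probe sets past 2-fold. The Cenpa value above 0 came from a probe set whose suffix marks possible cross-hybridisation.

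Probe sets of a single member often disagreed. Among the 35 members with several probe sets, the range from lowest to highest had a median of 0.65, against 0.40 over the 9609 such genes in the table, although members had more probe sets each. At equal numbers the medians were 0.22 against 0.25 for genes with 2 probe sets, 0.74 against 0.49 with 3, and 0.65 against 0.65 with 4. A range of 1 or more occurred in 7 members (20.0%; 17.8% of all such genes): Kif20b (2.14), Cenpf (1.74), Cenpw (1.54), Kif5b (1.47), Cenpa (1.26), Kif21b (1.19) and Kif21a (1.16). These are largely the members with large changes, and a range of 1 is as wide as the 2-fold threshold is far from 0. In 16 of the 35 the probe sets lay on both sides of 0, in 12 all lay above it and in 7 all below. The pooled SD between probe sets was 0.52 for mitotic kinesins, 0.37 for transport kinesins, 0.29 for other kinesins and 0.51 for centromere proteins. Of the 6 members past 2-fold with several probe sets, Cenpe was the only one with every probe set past 2-fold, and 3 more (Cenpv, Cenpj and Kif26b) rest on 1 probe set each. In no member did 1 probe set pass 2-fold upwards and another downwards.

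**Figure D4:**
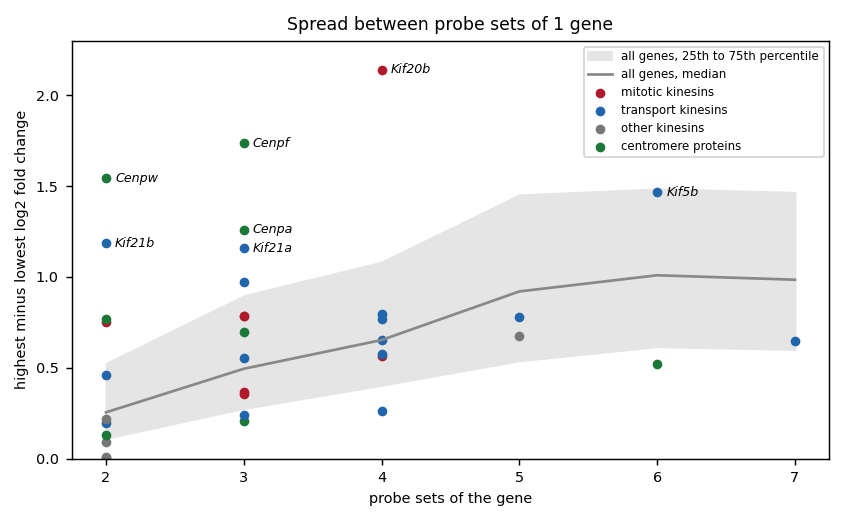
Highest minus lowest log2 fold change among the probe sets of each of the 35 members with several, against the number of probe sets, coloured by class, with the median (line) and the 25th to 75th percentile (band) of all genes with as many probe sets. Kif20b has the widest range, 2.14, and the 7 members with a range of 1 or more are named.

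The partners of these proteins that the symbol rule leaves out were read from lists of known partners. In 4 lists of division genes, 6 of 41 measured genes (14.6%) passed 2-fold above 0, where 4.69% of all genes did, and none below it, where 5.08% did. In these lists 22 genes lay above 0 and 19 below, against 43.4% of all genes above 0. Among 15 outer kinetochore partners (median 0.14) the 1 past 2-fold was Casc5, the scaffold that recruits the spindle checkpoint, at 1.46. Among 9 centromere partners filed under other symbols (median 0.11) there were 2, Cenpc1 (1.17), which links centromere chromatin to the kinetochore, and Sgol2 (1.03), which protects centromeric cohesion. Of 6 spindle checkpoint genes (median 0.23), Ttk, the checkpoint kinase, had 1.09, while the list's lowest value was -0.82 for Bub1b. Of 11 genes of the chromosomal passenger complex and midzone (median -0.19), Ect2 and Anln, which organise the contractile ring, had 1.46 each. The pattern resembled that of the members, with a middle near 0 and a few large values above it.

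The partners of cargo transport had no gene past 2-fold above 0. Of 19 measured genes in 2 lists, 14 lay below 0, where 56.2% of all genes did, and the median was -0.31. The 1 gene at least 2-fold lower is near the share over all genes (5.08%), as is the count of 0 higher (4.69%). The lower gene was Dctn1, the large subunit of the dynein activator dynactin, at -1.25 in a list of 10 dynein and dynactin genes with a median of -0.27. The 9 kinesin light chains and adaptors, which join kinesin motors to their cargo and include the light chains that bind Kif5b, had a median of -0.31 (-0.77 to 0.61), none past 2-fold, unlike Kif5b. Of the 4 C-terminal kinesins, which walk towards the minus end, Kifc3 had -1.15.

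**Figure D5:**
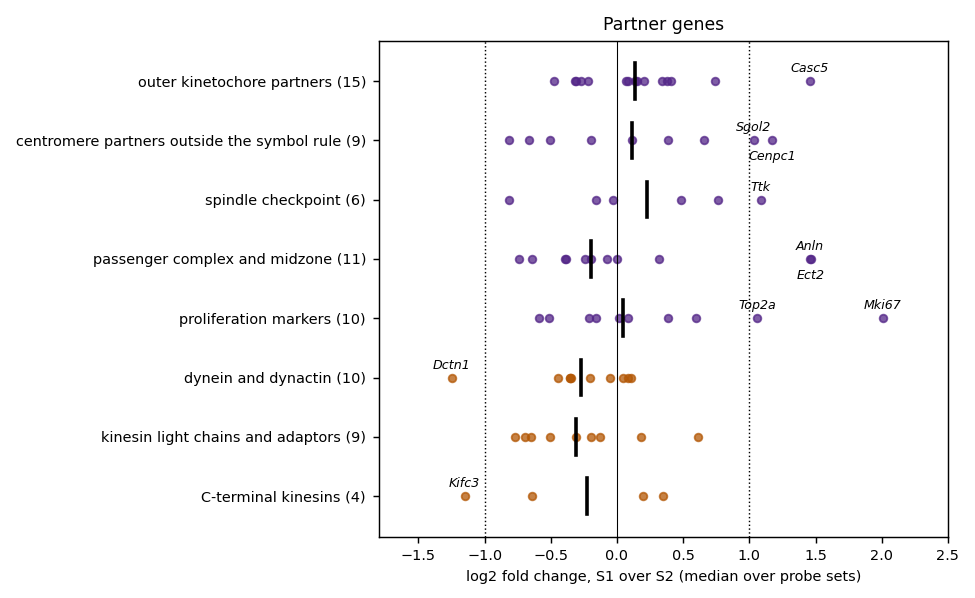
Gene values (median log2 fold change over probe sets, S1 over S2) of partner genes by list, with the number measured in brackets, list medians as black bars, dotted lines at 2-fold and names for genes past it. Purple points are division and proliferation genes, with 8 past 2-fold above 0, and orange points are transport partners and C-terminal kinesins, with 2 past 2-fold below 0.

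Proliferation markers had a like spread to the mitotic members. Of 10 such genes (median 0.05, -0.59 to 2.01) Mki67, the Ki-67 antigen, had 2.01 and Top2a, which untangles sister chromatids, had 1.06, and none was at least 2-fold lower. Over all genes, 4.69% were at least 2-fold higher and 5.08% lower. Mki67 rests on 1 probe set, and the lowest of the 3 for Top2a gave -0.40. Of the 10 markers, 6 lay above 0 and 4 below. The markers' part in the members' values was not tested. Of the marker lists of other cell types, 5 immune genes lay between -0.07 and 0.19, 3 endothelial genes between -0.37 and 0.31 and 4 fibroblast genes between -1.16 and 0.17, where Pdgfrb was the 1 past 2-fold. The 5 genes listed as squamous and basal epithelial lay between -0.09 and 0.36. The table gives no levels, so these lists cannot show whether such cells or the epithelial markers were present.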

How the data were processed

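Total RNA of the S1 and S2 lines was extracted with TRIzol, biotin-labelled and measured on Affymetrix whole-genome mouse arrays. The authors used Partek Genomics Suite for the analysis, and the submitters' processing notes name MAS5. The background correction, the normalization and the number of arrays are not given in the sources used here. The deposited values are signed linear fold changes of S1 over S2, 1 per probe set, in the authors' own comparison table. That table was the only measurement analysed here, and its values are printed as the authors' fold changes, put on the log2 scale with their sign. With no signals or replicates, the precision of a value is unknown and no p-value was computed.

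A gene took the median over probe sets that name it alone. Probe sets naming no gene (5797) or several (1280) were left out of genes. Members, role classes, partner lists and the receptor reference were chosen with earlier results of these data known. By rule, members at least 2-fold changed, or with such a probe set, were given at every probe set (13 genes), other members by class, and partners if at least 2-fold changed (at most 4 per list and direction). Bub1b was named after its value was seen, and 1 gene of the partner lists is not reported here and was left out of their counts. Symbols were matched to RefSeq tables for promoter windows and, in the closing observations, gene order only, since the deposited table names no build. The 5 members without a promoter match were Kif5a, Kif5b, Kif13b, Kif20a and Kif21b.

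Alternatives were thresholds of 1.5-fold and 4-fold, the mean or the largest probe set in place of the median, leaving out probe sets ending in _x_at or _s_at, centring on all probe sets or on poly-A controls, and moving Cenpe, Kif2a or Kif21a and Kif21b between or out of the kinesin classes. Gene summaries were tested on simulated data. Python 3.11.15, numpy 2.4.6, pandas 2.3.3 and matplotlib 3.10.9 were used.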

Additional observations from a re-analysis of the deposited data

How the results depend on the processing

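The count of 8 members at least 2-fold higher became 7 under the mean over probe sets and stayed 8 without probe sets of possible cross-hybridisation and after centring on all probe sets, and the count of 1 lower stayed 1 in these settings. The centromere median went from 0.10 to 0.0088 without probe sets of possible cross-hybridisation. The difference of mitotic minus transport medians was -0.15 with the largest probe set and 0.065 with Cenpe or Kif2a counted as mitotic, so its sign was not settled. At 1.5-fold, 12 members were higher and 5 lower, and at 4-fold 2 were higher and 1 lower. Taking each gene's largest probe set gave 3 lower members, a transport median of 0.23 and a centromere median of 0.33. Centring on 27 poly-A control probe sets, whose median was -0.42, moved the medians to 0.50 (mitotic), 0.50 (transport) and 0.51 (centromere), a shift common to all genes. Of the 13 members given at every probe set, the largest probe set moved 5 past the pooled SD between members' probe sets (0.422). The 5 were Cenpf (2.13), Cenpw (1.40), Kif20b (2.03), Kif5b (2.21) and Kif21b (-1.58). None moved that far under the mean or without probe sets of possible cross-hybridisation, where members with 1 probe set could not move. Both centrings subtract the same constant from every gene (-0.018 for all probe sets, -0.415 for poly-A controls). Each constant is smaller in size than that SD, so no gene could move past it. None of the 13 changed direction in any of these settings. Around the 2-fold threshold, the largest probe set added Cenpk, Cenpw, Kif21b and Cenpa, the mean dropped Kif21a (0.85), and poly-A centring added Cenpk, Cenpq, Cenpw and Kif16b. No paired analysis was possible because each line has 1 sample and the table holds no per-sample values. The absence of signals limits every value, since a fold change between dim probe sets cannot be told from one between bright ones.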

Other observations

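Kif11 and Kif20b, the 2 mitotic kinesins at least 2-fold higher in S1, both lie on mouse chromosome 19, with 13 measured genes between them in RefSeq's gene order. Of those 13 genes 3 were at least 2-fold higher, Ankrd1 (2.69), Btaf1 (1.33) and Pcgf5 (1.22), and 0 were at least 2-fold lower, and their median was 0.14 (-0.98 to 2.69). Among the 5 measured genes on each side of Kif20b, 3 of 10 passed 2-fold above 0, and the median was 0.34. They were Ifit1, the highest at 3.52, and Ankrd1 and Pcgf5, already counted among the 13. The 10 around Kif11 had a median of 0.14, and the 1 past 2-fold above 0 was Btaf1, also already counted. The counts thus share genes and do not add up as separate ones. Over all genes, 4.69% passed 2-fold above 0 and 5.08% below it. Neighbours of the other members past 2-fold had medians between -0.36 (Cenpv) and 0.13 (Kif26b). Those of Kif26b ran from -0.32 to 0.73 with none past 2-fold, and those of Kif5b from -0.88 to 0.61, also with none. Cenpe and Cenpf likewise had no neighbour past 2-fold. Cenpj had 2 past it above 0, Mphosph8 (1.54) and Zmym5 (1.22), and 1 below 0, Parp4 (-1.06). Cenpv and Kif21a had 1 each below 0 and none above. Away from chromosome 19, Cenpj was thus the only member past 2-fold with neighbours past 2-fold above 0. Whether position has a part in the members' values was not tested. The neighbours and the 13 genes were chosen by position after the members' values had been seen, and the order of genes gives no copy number.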
